A study of Mus musculus with 8 samples.

Results

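The interleukin-1 and inflammasome genes described here are the ligands Il1a, Il1b and Il18, the antagonist Il1rn, the decoy receptor Il1r2 and the inflammasome components Nlrp3, Pycard, Casp1 and Casp4. They were chosen by name, as 9 of the 32285 genes in the count matrices, and all 9 had unique molecular identifiers (UMIs, counts of distinct captured transcripts) in the kept cells. Single-cell RNA-seq was performed on CD45+CD11b+Ly6Chi cells, a gate set for monocytic myeloid-derived suppressor cells, sorted from MC38 colon carcinoma tumors or from blood of the tumor-bearing mice. Tumors received no irradiation (control) or a single dose of 20 Gy (IR), and cells were collected 3 days later. Tumor and blood each gave a control and an IR library, and all 4 droplet libraries mixed cells of wild-type (WT) mice, which were Ythdf2 fl/fl, and of Ythdf2-cKO mice, which were Lyz2-Cre; Ythdf2 fl/fl and therefore lack the m6A reader Ythdf2 only in cells that express the myeloid Lyz2 promoter. All mice were on the C57BL/6J background, young adults of both sexes were used, and each tumor group pooled 5 mice. Cells were assigned to WT or cKO by hashtag antibodies, giving 8 groups of 1 pooled sample each. No group had a replicate, so every interval below is a 95% interval for counting error alone, no test of a condition was possible, and control and IR, like tumor and blood, cannot be told apart from the libraries that held them.

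The 27512 kept cells comprised 4675 from tumor control, 6930 from tumor IR, 8407 from blood control and 7500 from blood IR, with median depths of 2992 to 7294 UMIs per cell. The targeted gene went against its label: cells labelled cKO had 303 to 374 Ythdf2 UMIs per 1000000 UMIs (CPM) in the 4 libraries, against 33.0 to 55.5 CPM in cells labelled WT. Counts came from the 3′ end of transcripts and the position of the floxed exon is not given in the sources used here, so whether they check the deletion is not known. Lyz2, the gene that carries Cre, was lower in cells labelled cKO by 5.79 to 7.41 on the log2 scale in all 4 libraries. The groups are therefore called cells labelled WT and cells labelled cKO throughout. The 2 tumor matrices shared 12558 barcodes of at least 500 UMIs, out of 13144 and 12927, and the minimum of 20 hashtag UMIs left 32 shared among the kept cells. That minimum removed 7124 of 12437 called barcodes (57.3%) in tumor control and 4800 of 12525 (38.3%) in tumor IR, against 5 in each blood library. Which tumor library a cell was given to thus rests on its hashtag counts. Counting the kept tumor cells in the other tumor matrix instead gave, for example, Il1a levels of 251, 557, 384 and 359 CPM in tumor control WT, tumor control cKO, tumor IR WT and tumor IR cKO, against 265, 576, 392 and 366 CPM in their own. This recount kept the same barcodes and labels, so it cannot check that assignment. The gate was not reflected in the blood: neutrophil-like cells made up 66.5 to 70.9% of the cells in the 4 blood groups.

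Interleukin-1α and interleukin-1β signal through the same receptor and start local inflammation, which in tumors includes recruitment of myeloid cells. Interleukin-1β and interleukin-18 are made as inactive precursors that caspase-1 cleaves, whereas the interleukin-1α precursor is already active. Caspase-1 is activated on inflammasomes, in which a sensor such as NLRP3 recruits the adaptor ASC, encoded by Pycard. Caspase-4 senses intracellular lipopolysaccharide in the noncanonical pathway. The antagonist encoded by Il1rn blocks the receptor, and the decoy receptor encoded by Il1r2 binds ligand without signaling. All values below are transcript counts and say nothing of cleavage or secretion.

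On GRCm38, matched by gene ID, Il1a (chr2:129299610-129309972) and Il1b (chr2:129364570-129371139) lie on the minus strand, 54597 bases apart, and Il1rn lies on the same chromosome (chr2:24336853-24351494, plus strand). Casp1 (chr9:5298517-5307265) and Casp4 (chr9:5308828-5336783) are neighbours 1563 bases apart on the plus strand, and Il18 lies on the same chromosome (chr9:50554827-50581840, plus strand). The others are Il1r2 (chr1:40074079-40125231, plus strand), Nlrp3 (chr11:59541568-59566956, plus strand) and Pycard (chr7:127989708-127993867, minus strand). Antisense genes overlap some members, with few UMIs of their own: Il1bos had 648 UMIs over all kept cells against 902958 of Il1b, and Bco2 had 249 against 5068 of Il18.

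The 250 bases before the start site of Il1a and Il1b are shown because these neighbouring ligands differed from each other in blood, where Il1b was high and Il1a nearly absent. Both are RefSeq sequence on GRCm38.p6, read 5′ to 3′ on the gene's minus strand, from chr2:129309973-129310222 for Il1a and chr2:129371140-129371389 for Il1b, with motif matches in capitals.
Il1a: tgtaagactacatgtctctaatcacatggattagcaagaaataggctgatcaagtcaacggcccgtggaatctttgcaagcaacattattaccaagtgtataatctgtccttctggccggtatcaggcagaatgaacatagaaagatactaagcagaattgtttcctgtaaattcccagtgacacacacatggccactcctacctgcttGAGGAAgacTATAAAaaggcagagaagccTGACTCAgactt
Il1b: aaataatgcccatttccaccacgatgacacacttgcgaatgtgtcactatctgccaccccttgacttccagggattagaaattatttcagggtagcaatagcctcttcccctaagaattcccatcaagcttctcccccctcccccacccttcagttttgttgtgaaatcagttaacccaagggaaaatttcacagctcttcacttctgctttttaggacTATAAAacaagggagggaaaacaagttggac
The capitals mark TATAAA for the TATA box on the gene strand, GAGGAA for PU.1 on both strands and, for AP-1 on both strands, TGA and TCA with any base between them, and none of the marked matches overlap. The TATA box begins 32 bases before the start site in Il1a and 31 in Il1b. The Il1a window also holds a PU.1 match 41 bases and an AP-1 match 12 bases before the start site. Of 32851 windows of the same length, 7.59% hold the TATA box letters, 6.75% the AP-1 letters and 23.3% the PU.1 letters. The search also covered the C/EBP motif TTGCNNAA, the interferon-stimulated response element and the kappa B motif on both strands, found in 9.56%, 2.98% and 0.980% of windows and in neither printed one. These matches are letters in a window, and no binding was measured here.

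To locate the transcripts, cells were clustered without the members, and the 21 clusters were named from marker genes. The highest Il1b level was in tumor neutrophil-like cells: pooled over groups, 616 such cells had 31109 CPM of Il1b, against 8519 CPM in the 10905 neutrophil-like cells of blood. Il1a separated the neutrophil-like cells of the 2 tissues further, with 1427 CPM in tumor and 0.289 CPM in blood, where only 9 UMIs were counted. A UMI of Il1a was found in 48.7% of the tumor cells (Clopper-Pearson 95% interval 44.7 to 52.7%) and in 0.0825% of the blood cells (0.0377 to 0.157%), although the blood cells were deeper, with median depths of 2609 against 1900.0 UMIs. Almost all neutrophil-like cells of either tissue held Il1b, in 98.3% of the blood cells and 98.2% of the tumor cells. Thus blood neutrophil-like cells carried the Il1b transcript with almost no Il1a, and tumor neutrophil-like cells carried both.

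Other members were also higher in the tumor neutrophil-like cells. The antagonist Il1rn was at 3083 CPM in tumor and 214 CPM in blood, the decoy receptor Il1r2 at 1805 and 550.0 CPM, and the sensor Nlrp3 at 1551 and 308 CPM. Casp4 was at 264 CPM in tumor (95% interval 236 to 295) and 119 in blood (115 to 123). In contrast, the adaptor Pycard was low in neutrophil-like cells of both tissues, at 46.5 CPM (35.1 to 60.4) in tumor and 18.1 CPM (16.7 to 19.7) in blood. The tumor neutrophil-like cells came mostly from irradiated tumors, with 321 cells labelled WT and 241 labelled cKO in cluster 12 after IR, against 15 and 26 in control tumors.

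Monocyte-like cells showed the opposite arrangement in blood. Blood monocyte-like cluster 2 (2865 cells) had 416 CPM of Pycard and 121 CPM of Casp1, against 13.5 and 31.1 CPM in the largest blood neutrophil-like cluster, cluster 0. Its Il1b level was 149.96 CPM, below the 439 CPM of B cell-like cells (77 cells, median depth 3533 UMIs against 11162 in cluster 2), taken here as a type that should lack this cytokine. It was 170.0 and 173 CPM in control blood for WT and cKO, above the 79.4 CPM (95% interval 59.8 to 103) and 48.9 CPM (22.4 to 92.8) of NK cell-like cells there, so expression and free RNA cannot be told apart for it. Of cluster 2 cells 49.7% had an Il1b UMI, against 20.8% of the B cell-like cells, but these shares were not brought to a common depth. In tumor macrophage-like cluster 3, led by Mmp13, Mmp12 and the interferon-induced Rsad2 and Ifit2, Il1b was at 8295 CPM, Il1a at 606 CPM and Il1rn at 1243 CPM. The same cluster had Nlrp3 at 598 CPM, Pycard at 384 CPM, Casp1 at 77.0 CPM and Il18 at 77.1 CPM. In sums over its cells it thus combined the sensor, adaptor, caspase and cytokine transcripts, as did the large unnamed tumor clusters described next. With another random seed, a cluster led by Ifit2 and Rsad2 formed apart from one with Mmp12 and Mmp13 among its leading genes. In irradiated tumors labelled WT, the former had Nlrp3 at 463 CPM and Casp1 at 115 CPM. The latter had 818 and 32.5 CPM. Blood monocyte-like cells, in contrast, had little of the cytokine and blood neutrophil-like cells had little of the adaptor.

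The other macrophage-like cluster, cluster 11, led by Fcrls, Folr2 and Mrc1, had less Il1b (3071 CPM) but a similar Il1a level (601 CPM). The unnamed clusters also carried both ligands. Cluster 4, led by H2-Ab1 and Cxcl9, had 9279 CPM of Il1b and 527 of Il1a, and cluster 5, led by Cxcl10, Socs1 and Gbp5, had 10026 and 292 CPM. Over its 4 tumor groups, cluster 4 had Nlrp3 at 448 to 606 CPM, Pycard at 396 to 543 CPM and Casp1 at 43.9 to 69.8 CPM. The ranges in cluster 5 were 260 to 543, 336 to 448 and 65.6 to 87.5 CPM. Dendritic cell-like cluster 10, led by Cd209a, had the decoy receptor Il1r2 at 693 to 1019.7 CPM in its 4 tumor groups and 16.9 and 18.5 CPM in the 2 blood groups with at least 50 cells. Neutrophil-like cluster 12 was higher in irradiated tumors, at 1854 CPM for WT and 1752 CPM for cKO. Neutrophil-like cluster 0 was in the same range in control blood, at 762 and 779.7 CPM. In cells that should lack these genes, fibroblast-like cluster 14 had 73.4 CPM of Il1b and 4.04 of Il1a, and NK cell-like cluster 9, drawn from both tissues, had 96.4 and 4.07 CPM.

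**Figure D1:**
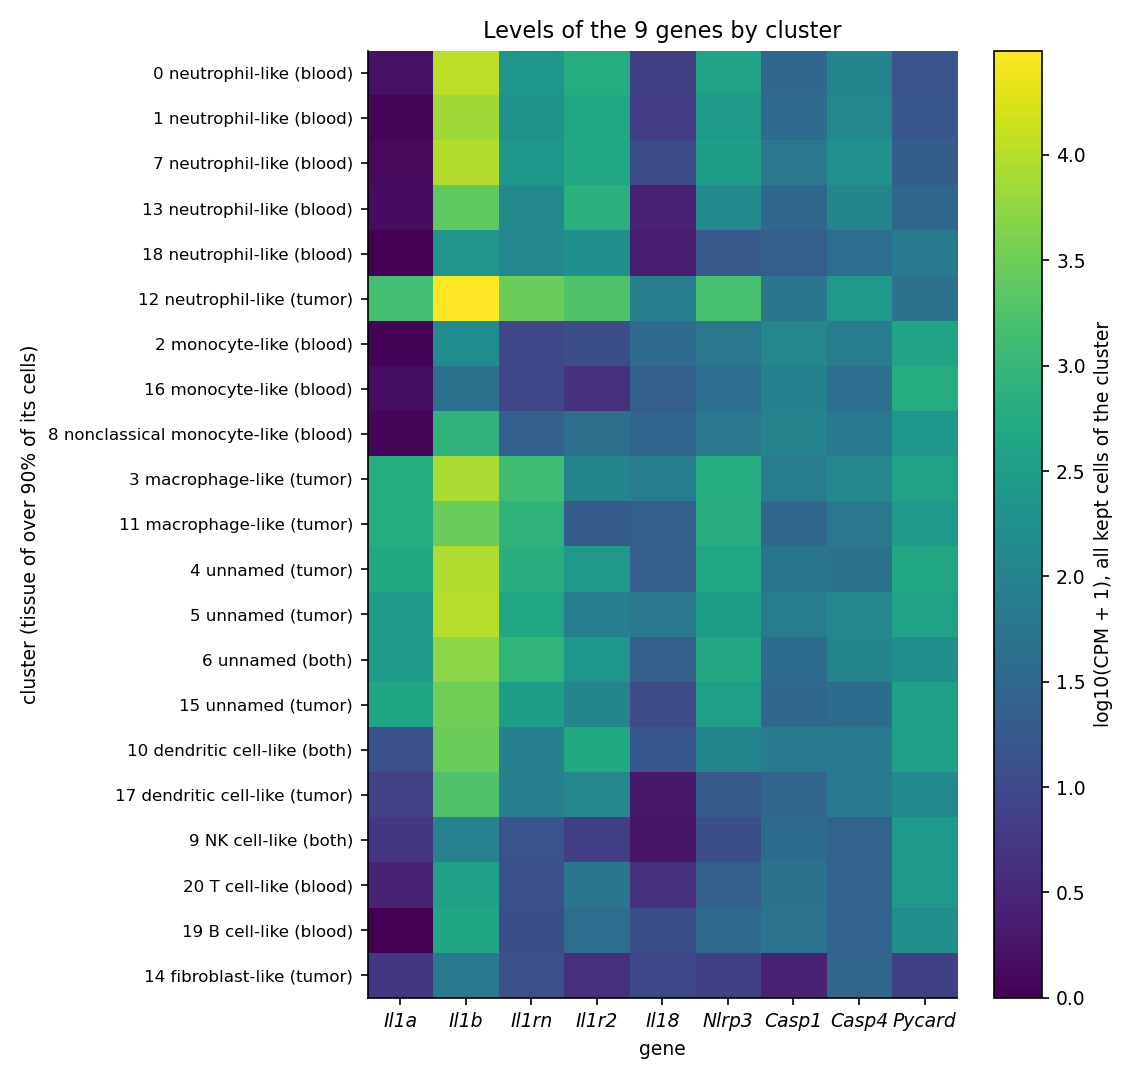
Levels of the 9 genes (x axis) in the 21 clusters (y axis, with the tissue that gave over 90% of the cells), as log10(CPM + 1) over all kept cells of a cluster by colour. Tumor neutrophil-like cluster 12 is brightest for Il1b (31226 CPM), the blood clusters are dark for Il1a, and Pycard is dark in the neutrophil-like rows and brighter in the monocyte-like and macrophage-like rows.

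Over all cells, tumor and blood were compared within each label and treatment, counting a gene as past the size limit when it had at least 100 UMIs in both groups together and a log2 ratio of at least 1 in size. Il1a was at 265, 576, 392 and 366 CPM in tumor control WT, tumor control cKO, tumor IR WT and tumor IR cKO, against 5, 4, 4 and 0 UMIs in the matching blood groups. No blood group approached a tumor group. The Il1a level in tumor was 1139-fold (95% interval 488 to 3510) that in blood among control cells labelled WT, 2764-fold (1079 to 10147) among control cells labelled cKO and 2189-fold (855 to 8035) among IR cells labelled WT. Among IR cells labelled cKO it was at least 2304-fold higher, taking the floor of 3 UMIs in that blood group.

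Il1rn was at 457, 456, 813 and 932 CPM in the tumor groups in the same order, and at 93.6, 73.4, 98.3 and 84.7 CPM in the blood groups. The tumor groups all lay above the blood groups, with log2 ratios of 2.29 to 3.46. Il1b was also higher in every tumor group, at 6066, 6671, 7612 and 7422 CPM against 4311, 2758, 3543 and 2937 CPM, and Nlrp3 was at 319, 422, 440 and 457 CPM against 213, 121, 144 and 129 CPM. Unlike these, Casp1 was lower in every tumor group than in its blood counterpart, at 40.6, 28.4, 68.8 and 69.1 CPM against 75.6, 75.5, 87.0 and 91.8 CPM. Il1a and Il1rn were thus the members that separated the tissues most, and Casp1 ran the other way.

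Of the 9 members, 2 were past the size limit, both higher in tumor, among control cells labelled WT, where 35.4% of all counted genes were past it. Among control cells labelled cKO, 4 were higher and 3 lower, against a background of 43.8%. Among IR cells, 5 members were higher for cells labelled WT (background 32.3%) and 5 for cells labelled cKO (background 32.1%). In bulk sums of this kind, fewer cells of a type and less RNA per cell cannot be told apart, and neutrophil-like cells held most blood barcodes. With neutrophil-like cells left out, Il1b in tumor exceeded blood by 3.96 to 5.41 on the log2 scale, and Il1r2, lower in tumor by 1.75 among control cells labelled cKO, was higher by 1.81.

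**Figure D2:**
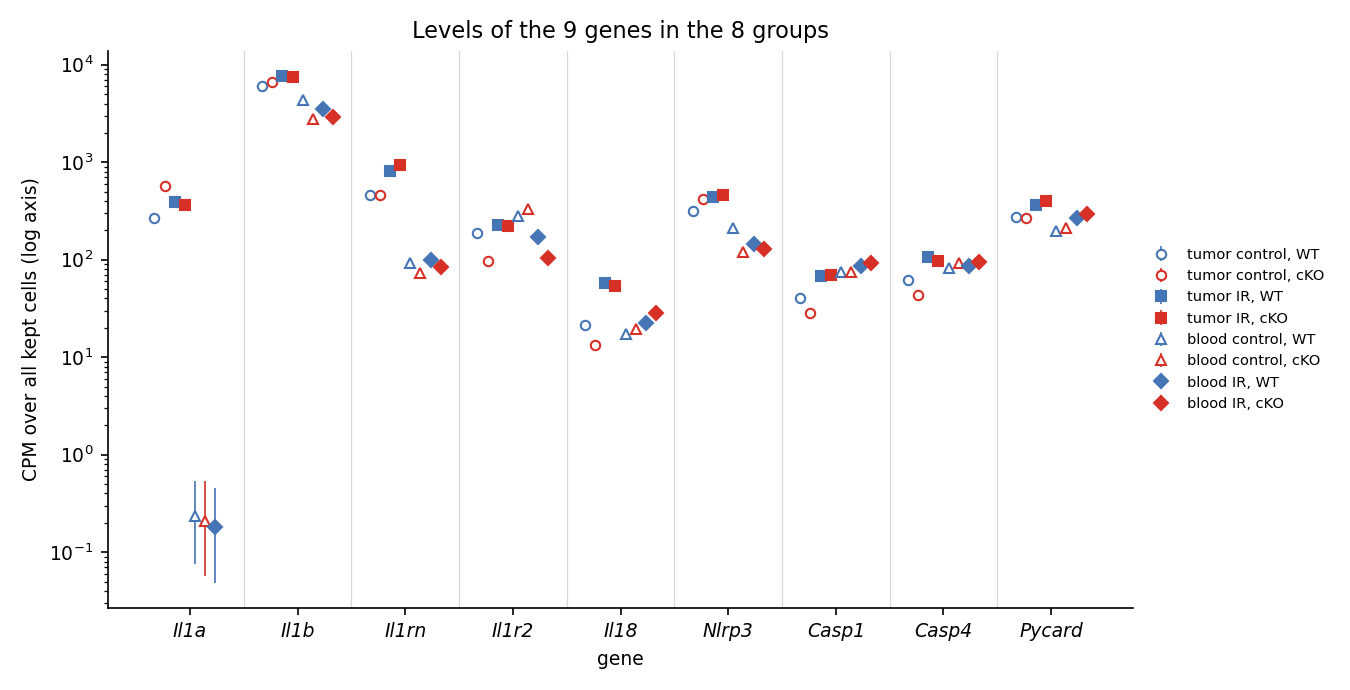
CPM over all kept cells (y axis, log scale) of the 9 genes (x axis) in the 8 groups, with vertical lines for 95% Poisson intervals, visible only where counts are low. Il1a lies between 265 and 576 CPM in tumor and below 1 CPM in blood, and its blood IR cKO value, 0 UMIs, is not drawn.

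Cells labelled cKO were compared with cells labelled WT within a library. In control tumors, Il1a was at 576 CPM in cells labelled cKO and 265 CPM in cells labelled WT (log2 ratio 1.12, 95% interval 1.08 to 1.17), the only member past the size limit, against a background of 4.81% of counted genes. An Il1a UMI was present in 54.4% of cells labelled cKO and 31.5% of cells labelled WT, and in 31.8% and 14.3% after thinning each cell to 1000 UMIs. In irradiated tumors the levels were 366 and 392 CPM (log2 ratio -0.10, -0.14 to -0.06), and none of the 9 members was past the limit (background 1.26%). The order of the 2 labels for Il1a in control tumors was therefore not seen after IR. The control value fell below the limit with a 4-fold hashtag margin on both sides (0.75) and in macrophage-like cells alone (0.59).

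The same order appeared in each cluster that could be compared. Within macrophage-like cluster 3 in control tumors, Il1a was at 1422 CPM in 111 cells labelled cKO and 695.0 CPM in 261 cells labelled WT (log2 ratio 1.03, 0.91 to 1.15). Cluster 4 had 979.8 and 369 CPM (1.41, 1.34 to 1.48), cluster 5 had 807 and 192 CPM (2.07, 1.94 to 2.20), and macrophage-like cluster 11 had 756 and 471 CPM (0.68, 0.57 to 0.80). In all 6 clusters with enough cells and UMIs in control tumors, fibroblast-like and NK cell-like cells aside, the interval lay above 0, and it did so in 4 of 4, 7 of 7 and 6 of 6 clusters when cells were clustered at resolution 0.4, at resolution 1.2 or from another random seed. After IR, the log2 ratio was -0.11 in cluster 3, -0.09 in cluster 4 and 0.25 in cluster 5, and ran from -0.84 to 0.25 over 6 clusters.

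Il1b and Nlrp3 were also higher inside the clusters, and differed less than Il1a in the sum over all cells. Over all control tumor cells, Il1b was at 6671 CPM in cells labelled cKO and 6066 in cells labelled WT (log2 ratio 0.14), and Nlrp3 at 422 and 319 CPM (0.41). Within clusters, fibroblast-like and NK cell-like cells again set aside, Il1b was higher in cells labelled cKO in 7 of 7, by 0.27 to 1.29 on the log2 scale, the highest value in unnamed cluster 15, which was led by T cell genes such as Cd3g and also had raised macrophage markers. Fibroblast-like cluster 14 ran the other way, at 47.9 CPM for cKO and 92.9 CPM for WT (log2 ratio -0.95). In cluster 5 Il1b was at 19195 CPM against 8667, and in cluster 4 at 12128 against 9177. Nlrp3, the sensor, was above the WT value in 7 of 7 clusters, with the interval above 0 in 6, for example at 873 against 578 CPM in cluster 3 and 543 against 294 CPM in cluster 5. In the sum over macrophage-like cells the log2 ratio of Il1b was -0.16, and cluster 11, with the lower Il1b level of the 2 macrophage-like clusters, held 356 cells labelled cKO and 164 labelled WT. After IR, the range over clusters was -0.21 to 0.10 for Il1b and -0.34 to 0.46 for Nlrp3, on both sides of 0 in each case.

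The antagonist and the decoy receptor followed the ligands less or not at all. Il1rn was at 456 CPM in cells labelled cKO and 457 CPM in cells labelled WT in control tumors. Its log2 ratio within clusters ran from -0.09 to 0.66, with the interval above 0 in 6 of 7, and in each of these clusters it lay below that of Il1b. Il1r2 was at 97.4 and 189 CPM (log2 ratio -0.96, -1.04 to -0.89). Within clusters it was lower in cells labelled cKO in clusters 3, 4 and 5, by 0.58, 0.94 and 0.72 on the log2 scale, and higher in dendritic cell-like cluster 10 (log2 ratio 0.20) and in unnamed cluster 6, whose cells had the lowest depth of the unnamed clusters (0.72). Casp1 (28.4 and 40.6 CPM), Casp4 (43.7 and 62.0 CPM) and Il18 (13.5 and 21.3 CPM) were also lower in cells labelled cKO over all cells. Within clusters 3 and 4 each had the lower value in cells labelled cKO. In cluster 5 they were nearly level, at 68.0 and 65.6 CPM for Casp1, 106 and 108 CPM for Casp4 and 47.5 and 45.8 CPM for Il18. Pycard was level over all cells, at 265 and 273 CPM. Within clusters, Pycard was higher in cells labelled cKO in cluster 4 (469 and 396 CPM) and cluster 5 (390 and 336 CPM). It was level in cluster 3 (222 and 225 CPM) and lower in cluster 6 (147 and 198 CPM).

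Fibroblast-like cells, which had few UMIs of the members but many UMIs in all, differed between these groups. Cluster 14 held 30.4% of all UMIs from control tumor cells labelled cKO and 16.6% of those labelled WT, and 5.22% and 9.58% after IR. The 7 fibroblast markers summed to 1227 and 722 CPM in control tumors for cKO and WT, 209 and 420 CPM in irradiated tumors and at most 0.938 CPM in blood. Without cluster 14 and the low-depth cluster 6, Il1a was at 827 CPM in cells labelled cKO and 322 CPM in cells labelled WT in control tumors, Il1b at 9612 and 7323 CPM, and Nlrp3 at 601 and 378 CPM. The same sums after IR were 388 and 437 CPM for Il1a, 7882 and 8500.1 CPM for Il1b, and 479 and 487 CPM for Nlrp3, so the cKO-labelled cells lay above the WT-labelled cells for all 3 genes in control tumors and slightly below them after IR. Casp1 then differed less, at 40.8 and 48.9 CPM in control tumors, and Pycard differed more, at 384 and 329 CPM.

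**Figure D3:**
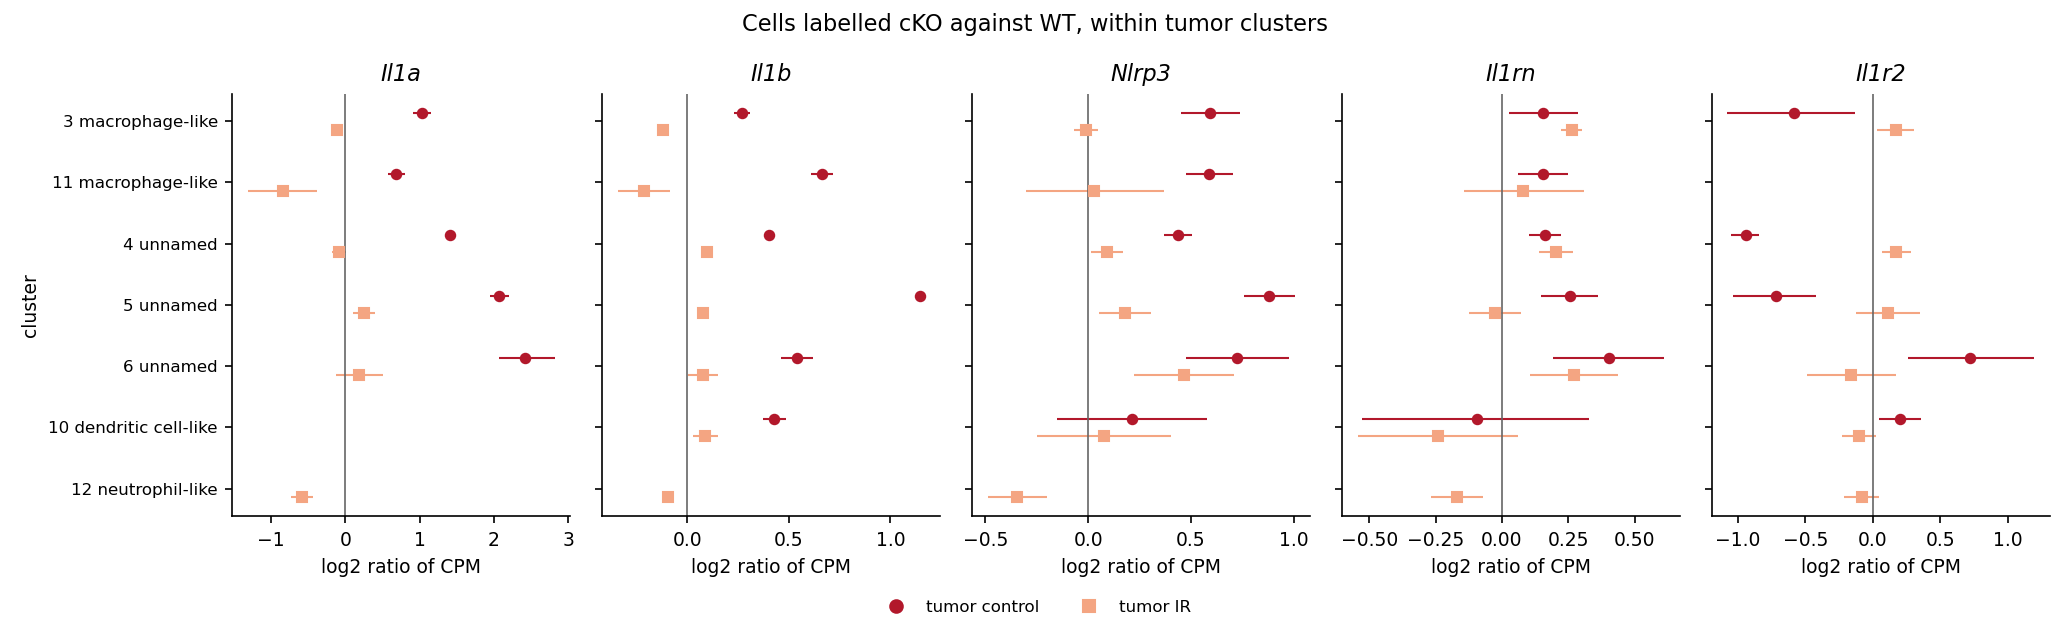
Log2 ratio of CPM of cells labelled cKO against cells labelled WT (x axis, its range differing between panels) within tumor clusters (y axis) in control (dark circles) and irradiated (light squares) tumors, with 95% intervals for counting error. For Il1a the control circles run from 0.68 to 2.41 while the IR squares run from -0.84 to 0.25.

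IR was compared with control within each label in tumor. In cells labelled WT, Il18, the other caspase-1 substrate, was at 58.0 CPM after IR and 21.3 CPM in control tumors (log2 ratio 1.44, 1.28 to 1.60), and was the 1 member of 9 past the size limit (background 5.9%). All 9 members were above control in the sum over cells labelled WT, with a median log2 ratio of 0.57, against -0.13 over all counted genes. Il1r2, at 226 and 189 CPM in these sums, was lower after IR within cluster 4 (248 and 329 CPM) and cluster 5 (77.3 and 97.7 CPM). It was higher in macrophage-like cells (98.7 and 54.6 CPM) and dendritic cell-like cells (879 and 621 CPM). Neutrophil-like cluster 12 held 1187 of the 4622 Il1r2 UMIs after IR, and the part of that cluster in the sum was not tested. In cells labelled cKO, 5 of 9 members were past the limit, all higher: Il18 (54.3 and 13.5 CPM), Casp1 (69.1 and 28.4 CPM), Il1r2 (219 and 97.4 CPM), Casp4 (97.2 and 43.7 CPM) and Il1rn (932 and 456 CPM). The background was 22.3% of counted genes, and this count was 2 without clusters 6 and 14 and 3 in macrophage-like cells alone. Il1a went the other way in cells labelled cKO, at 366 CPM after IR and 576 CPM in control tumors (log2 ratio -0.65, -0.69 to -0.62).

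Within clusters, the comparison differed by label for the ligands. In cells labelled cKO, Il1a was lower after IR in 5 of 5 clusters, by 1.27 to 2.32 on the log2 scale, and Il1b in 6 of 6, by 0.34 to 1.17. The other clusterings, of the same cells, gave a lower Il1a in 4 of 4, 7 of 7 and 5 of 5 clusters. In cells labelled WT, Il1a ran from -0.79 to 0.96 and Il1b from -0.32 to 0.30, in both directions, and the Il1a log2 ratio of 0.57 over all cells was -0.03 in macrophage-like cells alone. Il18 was higher after IR with either label in cluster 3 (log2 ratios 1.16 for WT and 1.93 for cKO), cluster 4 (1.25 and 2.10) and cluster 5 (0.67 and 0.61). In cluster 4 its levels were 33.8 and 31.4 CPM after IR for WT and cKO, against 14.1 and 7.19 CPM in control. Macrophage-like cluster 3, with 77.1 CPM of Il18, added to the sums after IR, when it held 1061 WT-labelled and 1345 cKO-labelled cells, against 261 and 111 in control tumors. Its mix of cells also differed between control and IR: with another random seed, a cluster led by Ifit2 and Rsad2, with 34 and 15 control cells for WT and cKO and 717 and 798 after IR, formed apart from a macrophage-like cluster with Mmp12 and Mmp13 among its leading genes (227 and 97 cells in control, 308 and 454 after IR). In the latter Il18 was at 28.9 CPM after IR and 23.8 CPM in control for WT (log2 ratio 0.27, -0.35 to 0.93) and at 33.2 and 9.93 CPM for cKO (1.69, 0.65 to 3.09), the last control level resting on 7 UMIs. The cluster 3 difference of cells labelled WT was thus not seen in that cluster beyond counting error.

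In blood, IR of the tumor was followed most clearly by a lower level of the decoy receptor Il1r2. It was at 169 CPM after IR and 283 CPM in control blood for cells labelled WT (log2 ratio -0.74, -0.80 to -0.69), and at 103 and 327 CPM for cells labelled cKO (-1.67, -1.74 to -1.59). The latter was the 1 member of 8 counted that was past the limit (background 1.41%), and 0 of 8 were for cells labelled WT (background 1.3%). Neutrophil-like cluster 0 had 469.7 and 762 CPM of Il1r2 for WT, after IR and in control, and 304 and 779.7 CPM for cKO. Neutrophil-like cluster 1 had 349 and 565 CPM for WT, and 245 and 891 CPM for cKO. Over 5 blood clusters, the log2 ratio lay between -1.08 and -0.51 for WT and between -1.86 and -0.79 for cKO. Monocyte-like cluster 2 was low throughout, at 8.06 CPM after IR and 12.6 CPM in control for WT and at 6.02 and 18.8 CPM for cKO. Barcodes too low in UMIs to be cells had 244 CPM of Il1r2 after IR and 461 CPM in control blood, and the part of this free RNA in the monocyte-like values was not tested.

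Nlrp3 was lower in blood after IR in cells labelled WT, at 144 CPM against 213 (log2 ratio -0.56, -0.63 to -0.50), with the interval below 0 in 5 of 5 clusters (-0.78 to -0.41). In cells labelled cKO it was at 129 and 121 CPM, and the interval lay below 0 in 1 of 5 clusters, monocyte-like cluster 2. Pycard was higher after IR with either label, at 269 against 195 CPM for WT and 294 against 211 CPM for cKO. In monocyte-like cluster 2, the largest of the clusters with much Pycard in blood, it was at 463 and 341 CPM for WT and 458 and 386 CPM for cKO.

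Cells labelled cKO and WT were also compared in blood. Nlrp3 was lower in cells labelled cKO in control blood, at 121 CPM against 213 (log2 ratio -0.81, -0.89 to -0.74), and lower in 5 of 5 clusters by 0.50 to 0.82. Il1b was at 2758 CPM against 4311 (-0.64, -0.66 to -0.63), but within neutrophil-like clusters 0, 1 and 7 it was lower by 0.12, 0.20 and 0.32, and in nonclassical monocyte-like cluster 8 by 0.76, at 651 CPM against 1105. Neutrophil-like cluster 13, led by Mmp8, Lcn2 and Ngp and with 2382 CPM of Il1b, held 464 cells labelled cKO and 31 labelled WT in control blood. No member of 8 was past the size limit in control blood (background 2.22%) or after IR (background 0.633%). After IR, Il1r2 stood farthest apart, at 103 CPM in cells labelled cKO and 169 CPM in cells labelled WT (-0.71, -0.79 to -0.63).

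**Figure D4:**
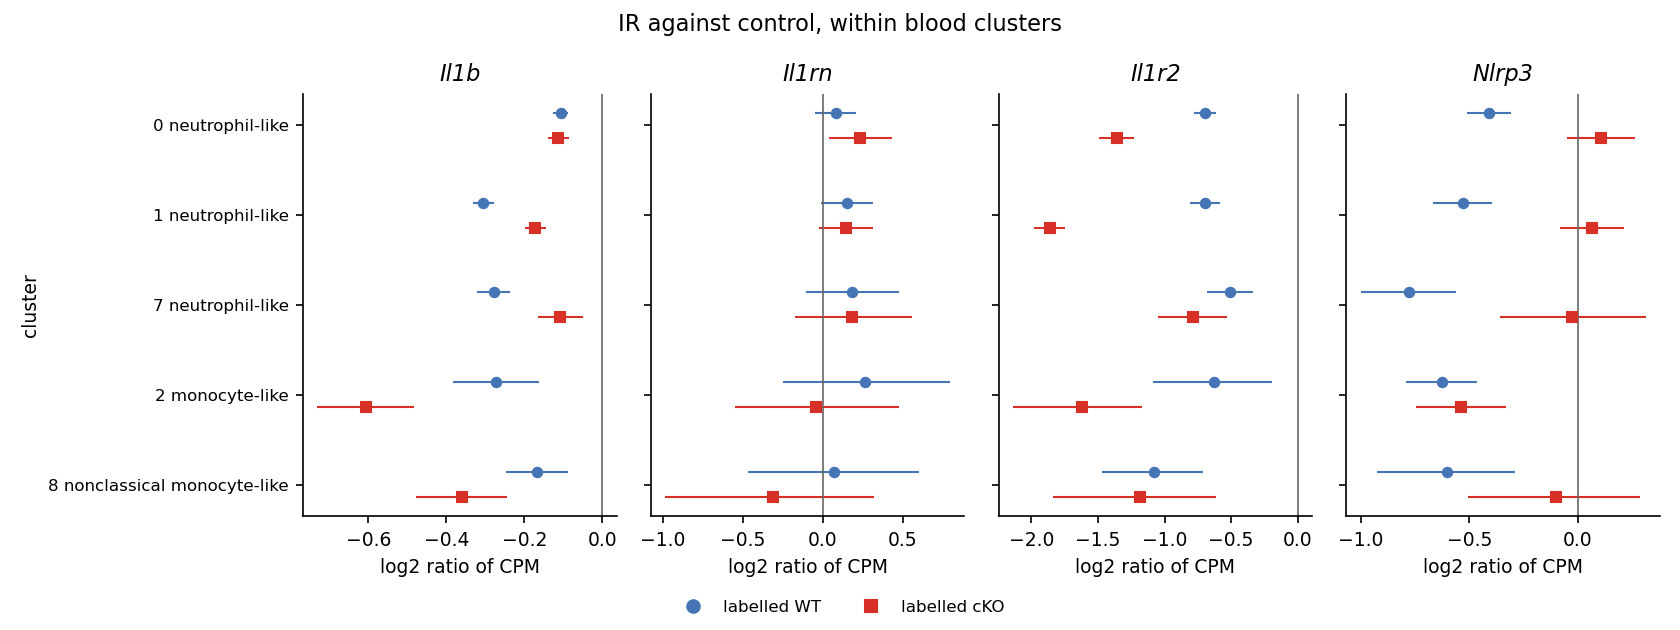
Log2 ratio of CPM of IR against control (x axis, its range differing between panels) within 5 blood clusters (y axis) for cells labelled WT (blue circles) and cKO (red squares), with 95% intervals for counting error. All Il1r2 points lie left of 0, from -1.86 to -0.51, while for Nlrp3 the 5 WT points lie left of 0 and the cKO points of the neutrophil-like clusters lie near 0.

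To follow antagonist against agonist transcripts, UMIs of Il1rn were divided by UMIs of Il1b in the same cells, a ratio that total depth does not enter. Because each gene is counted at its 3′ end with its own efficiency, the ratio is compared between groups only. It was 0.0753 in tumor control WT, 0.0683 in tumor control cKO, 0.107 in tumor IR WT and 0.126 in tumor IR cKO. Blood ratios were 0.0217 and 0.0266 in control WT and cKO, and 0.0277 and 0.0288 after IR. The ratio was therefore higher in every tumor group than in any blood group, and higher in irradiated than in control tumors with either label.

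Cluster 3 separated the labels after IR, with ratios of 0.0999 (95% interval 0.0944 to 0.106) for WT and 0.0923 (0.0855 to 0.0996) for cKO in control tumors, and 0.136 (0.133 to 0.139) and 0.177 (0.174 to 0.180) after IR. In the Mmp12 and Mmp13 cluster of the other seed the ratios were 0.0942 and 0.0791 in control and 0.122 and 0.161 after IR. Cluster 4 went from 0.0649 and 0.0550 in control to 0.0934 and 0.10045 after IR. Cluster 5 differed little for WT, at 0.0554 (0.0529 to 0.0581) in control tumors and 0.0582 (0.0554 to 0.0611) after IR, with overlapping intervals, whereas for cKO it was at 0.0299 (0.0281 to 0.0317) and 0.0542 (0.0516 to 0.0569). Macrophage-like cluster 11, led by Folr2, had the highest ratios among the clusters drawn, at 0.343 and 0.241 in control tumors for WT and cKO and 0.309 and 0.379 after IR. Its WT ratio was the lower one after IR, where it rested on 50 cells and 239 UMIs of Il1rn. In macrophage-like cluster 11 of the other seed, the WT ratio was 0.344 (0.322 to 0.366) in control and 0.283 (0.247 to 0.324) after IR, with overlapping intervals. The lower WT ratio was thus not clear of counting error there.

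**Figure D5:**
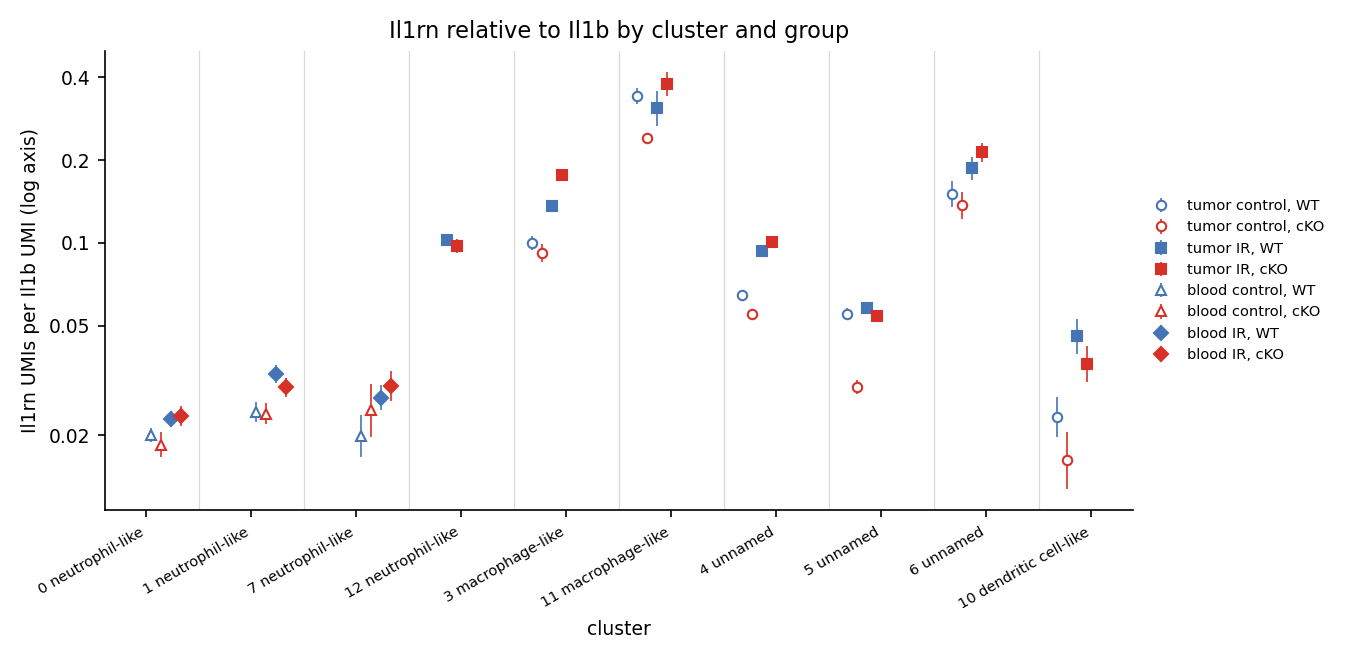
UMIs of Il1rn per UMI of Il1b (y axis, log scale) by cluster (x axis) and group (symbols), with 95% intervals for counting error. The blood neutrophil-like clusters drawn lie between 0.0185 and 0.0333 and macrophage-like cluster 11 between 0.241 and 0.379, and the open cKO circles lie below the open WT circles in control tumors.

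The rest of the pathway was described from a list of 42 genes. Among other ligands and antagonists, Il36g, an interleukin-36 agonist, had the most UMIs and was mainly a blood transcript, at 104 to 124 CPM in the blood groups, 0.492 and 1.14 CPM in control tumors for WT and cKO, and 15.8 and 10.2 CPM after IR. Il18bp, which neutralizes interleukin-18, was at 54.1 and 56.9 CPM after IR and 27.2 and 15.6 CPM in control tumors, so that this inhibitor was higher beside Il18 in irradiated tumors. Of the receptors, Il1rap, the shared accessory chain, had the most UMIs (19.1 to 32.3 CPM in tumor and at least 70.8 CPM in control blood). Il1r1, the signaling receptor, reached at most 6.56 CPM in tumor and 0.104 CPM in blood.

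The adaptor Myd88 had the most UMIs of the signal transduction genes over all kept cells. It was at 52.4, 38.8, 77.7 and 80.7 CPM in tumor control WT, tumor control cKO, tumor IR WT and tumor IR cKO. Irak2 was above it in control tumors, at 61.2 CPM for WT and 40.3 CPM for cKO, as was Irak1 for cKO (48.3 CPM). Mefv, which encodes the inflammasome sensor pyrin, had the most UMIs of the sensors over all kept cells. It was at 55.2, 33.9, 81.6 and 79.6 CPM in the same groups, below Naip2 (41.1 CPM) in tumor control cKO. Nlrp12 was nearly limited to blood, with at least 63.6 CPM in the control blood groups and at most 0.683 CPM in tumor. Txnip, a thioredoxin-binding protein, had the most UMIs of the effectors and regulators over all kept cells. In every tumor group Ninj1 was above it, for example at 240 CPM in tumor control WT. Txnip was at 57.5 CPM in control tumor cells labelled cKO against 147 CPM in those labelled WT (log2 ratio -1.36). In these sums over all cells, Myd88 and Mefv thus had their lowest tumor level in control cells labelled cKO, as Casp1 and Casp4 did.

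Counted over the list, 1 of 30 counted pathway genes was past the size limit and higher after IR in tumor cells labelled WT (Il36g; background 5.9%). In tumor cells labelled cKO, 9 of 32 were past it (background 22.3%), of which 6 were higher (Il36g, Il18bp, Myd88, Mefv, Casp8 and Txnip) and 3 lower (Il1r1, Il1rl1 and Sigirr). In blood, IR left 1 of 31 past it in cells labelled cKO (background 1.41%), Il18r1, lower at 5.30 against 10.8 CPM, and 0 of 31 in cells labelled WT (background 1.3%). Between labels, 3 of 31 were past it in control tumors (background 4.81%), where Il1r1 (6.56 and 2.86 CPM) and Il1rl1, the interleukin-33 receptor (25.5 and 9.41 CPM), were higher in cKO-labelled cells and Txnip was lower. In control blood 2 of 31 were past it (background 2.22%), as Il18bp (9.01 and 4.14 CPM) and Serpinb1a, a protease inhibitor (61.3 and 29.8 CPM), were higher in cells labelled cKO. After IR it was 0 of 30 in tumor and 0 of 31 in blood. These pathway values are sums over all cells, with no cluster left out. Fibroblast-like cells were 11.7% of control tumor cells labelled cKO and 4.59% of those labelled WT, and 1.24% and 2.55% after IR. Their part in the receptor and Txnip differences was not tested.

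Profiles of the members over 34 combinations of named cell class and group were compared with 10008 genes by the correlation of log2(CPM + 5), as a description over points that share libraries and depth. Il1a was most like Cxcl3 (r = 0.96), Il6 and 4930430E12Rik, and Il1b was most like Slc7a11 (0.95), Rab11fip1 and Ccr1. Nlrp3 was most like Ccr1 (0.96), Slc15a3 and Clec5a, and Il1rn most like Ets2 (0.96), Fth1 and Ccrl2. Il1r2 was most like Mmp25 (0.93), Casp4 most like the interferon-induced Oasl2 (0.90), and Casp1 most like Il10ra (0.90), while Il18 was closest to Sh2b2 (0.905). Pycard was most like AI662270 (0.94), Cd48 and Ms4a6b. Among the members, Il1b and Nlrp3 had r = 0.93 and Casp1 and Pycard 0.75, whereas Il1b and Pycard had r = -0.14, so the ligand and sensor transcripts and the adaptor were arranged differently over cell classes.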

How the data were processed

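Libraries were prepared with the Chromium 3′ v3.1 kit, with hashtag antibodies marking WT and cKO cells. The authors aligned reads to mm10 (GENCODE vM23) with Cell Ranger 6.0.1 and deposited UMI counts per gene and barcode, unfiltered and not normalized, with hashtag counts. The matrix headers name an earlier Cell Ranger release. The authors' notes also name Seurat 4.0.6.

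Barcodes passing an order-of-magnitude threshold or a test against the ambient profile (false discovery rate 0.01) were called cells, with at least 500 UMIs, 200 genes and 20 hashtag UMIs and at most 25% mitochondrial UMIs. Labels were WT if hashtag B0301 was at least B0302, and cKO if B0302 was at least 4 times B0301. The top 6% by Scrublet score (scanpy 1.11.5) were removed as doublets in each library. Seurat 5.3.0 clustered cells (2000 variable genes without the members, pathway genes, Ythdf2, Lyz1 and Lyz2, 40 exact principal components, resolution 0.8). Clusters were named "-like" from at least 3 raised markers. Levels are summed UMIs per 1000000 UMIs (CPM), with Poisson intervals; log2 ratios have exact conditional binomial intervals and shares Clopper-Pearson intervals, all at 95% and for counting error only. Cells were thinned to 1000 UMIs for the shares of Il1a by label in control tumors, and the other shares of cells with a UMI are unthinned. The ratio calculation was tested on simulated data. No test was run, because each group is 1 pooled sample. Alternatives included edgeR 4.0.16 TMM factors, other hashtag, cell-calling and doublet rules, and cell classes left out.

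The text names the 9 members, the checks Ythdf2 and Lyz2, up to 3 genes most like each member, and pathway genes past the size limit in the IR and label comparisons or with the most UMIs of their role. Il1r1 outside those comparisons and Nlrp12 were named after their values were seen. The members, lists and comparisons were chosen with earlier results of these data known. A protein table was not used here. Calculations used Python 3.11.15, numpy 2.4.6, scipy 1.17.1, pandas 2.3.3 and R 4.3.3.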

Additional observations from a re-analysis of the deposited data

Results flagged for a closer look

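These members had log2 ratios of opposite sign in 2 comparisons, with a difference of at least 1. None of the differences was tested, since each group is 1 pooled sample, and comparisons that share a group are not independent. For Il1a, IR against control in tumor was 0.57 in cells labelled WT and -0.65 in cells labelled cKO, a difference of 1.22, and the same 4 groups gave 1.12 for cKO against WT in control tumors and -0.10 in irradiated tumors, again a difference of 1.22. For Il1r2, IR against control in cells labelled cKO was 1.17 in tumor and -1.67 in blood, a difference of 2.84, and the same 4 groups gave -1.75 for tumor against blood in control and 1.09 after IR, a difference of -2.84. Il1r2 in cells labelled cKO against WT was -0.96 in control tumors and 0.21 in control blood, a difference of -1.17. For Il18 in cells labelled cKO, tumor against blood was -0.53 in control and 0.95 after IR, a difference of -1.48. For Nlrp3 in cells labelled WT, IR against control was 0.46 in tumor and -0.56 in blood, a difference of 1.02, and cKO against WT was 0.41 in control tumors and -0.81 in control blood, a difference of 1.22. Beside the tumor control values, the fibroblast-like cluster held 30.4% of UMIs in cells labelled cKO and 16.6% in cells labelled WT, and its part in these differences was not tested. Without that cluster and the low-depth cluster 6, Il1a was at 827 and 322 CPM in control tumors and 388 and 437 CPM after IR, for cKO and WT.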

How the results depend on the processing

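Of 1350 alternative log2 ratios over all cells, 1014 lay within the main value's counting interval, 335 lay outside it and 1 called value reversed. Within cell classes, 806 of 912 lay within it, 106 outside and 0 reversed. The reversed value was Il1r2, tumor against blood in control cells labelled cKO, which was 1.81 in place of -1.75 with neutrophil-like cells left out. Counts of members past the size limit moved as follows, and the cause was not tested. For cKO against WT in control tumors, the count was 2 in place of 1 with TMM factors, with the order-of-magnitude threshold alone and with no Scrublet removal. For IR in tumor it was 2 in place of 1 for WT with a 4-fold hashtag margin on both sides and with macrophage-like cells alone, and for cKO, in place of 5, it was 3 with macrophage-like cells alone and 2 with the fibroblast-like and low-depth clusters left out. With neutrophil-like cells left out, it was 1 in place of 0 for IR in blood WT, 2 in place of 1 for IR in blood cKO and 6 in place of 2 for tumor against blood in control WT. Il1a in cells labelled cKO against WT in control tumors ran from 0.59 to 1.36 over 14 alternatives. Leaving out those 2 clusters, reading barcodes from the other tumor matrix and another random seed of the clustering were chosen after seeing the data. With that seed 22 clusters formed in place of 21, so cluster borders and names are not fixed by the data alone. No paired analysis was possible because each group is 1 pooled sample and the replicate numbers mark the RNA and hashtag readouts of the same droplets. Depth limits the low members most: Il1a in blood rests on 0 to 5 UMIs a group, and Il18 levels in blood neutrophil-like cells (5.75 CPM) do not exceed those in B cell-like cells (11.2 CPM).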
